A study of Drosophila melanogaster with 9 samples.

Results

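The genes described are the 43 of 7539 genes in a Drosophila melanogaster testis expression table that TargetScan predicts as targets of both mature products of one microRNA hairpin, miR-313-3p and miR-313-5p. They are the genes that the authors' table marks Yes for each arm. They make up 8.85% of the 486 genes marked for the 3p arm and 17.8% of the 241 marked for the 5p arm. No member was removed before testing, but the table holds only genes whose value reached a log2(RPKM) of 1.00 in every library. Predicted targets below that level were not analysed here.

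A microRNA hairpin is cut to a duplex, and either strand can be loaded into an Argonaute complex. Pairing between the seed of the loaded strand and a messenger RNA usually lowers that messenger's stability or translation, often by a small amount. The miR-310 cluster (miR-310, miR-311, miR-312 and miR-313) is expressed in the germ line, and its 3p arms have a common seed that the broadly conserved miR-92 family also carries. A gene with predicted sites for both arms of miR-313 could thus respond to the loss of this hairpin through either strand.

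The comparison set 2 testis libraries of the Dm310s mutant, which lacks the whole cluster and not miR-313 alone, against 2 testis libraries of control flies. Mutant and control were both made from the P-element stock EP(2)2587, so both groups have that background, and each genotype is represented by a single line. Adults were 3 to 5 days old and were raised at 25 °C. The study also sequenced small RNAs, with 1 library each for Canton-S testes, ovaries and carcass and for Z56 testes and ovaries. Whether the libraries of a group came from separate animals is not stated in the labels. The p-values therefore describe the spread of these particular libraries, and that spread may be technical.

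Of the testis germ line markers, 14 of 16 were in the table, while 0 of 4 ovary markers were listed. The germ line markers summed to 2863 to 2931 RPKM in control and 3137 to 3147 RPKM in mutant libraries. That sum follows abundant genes such as Mst98Cb (0.27) and Mst98Ca (0.20). Only 6 of the 14 had a positive difference, the list's median was -0.02, and 0 were called in limma. Over all genes 51.3% were positive and 1.5% were called. Summed marker levels of some other organs differed between the genotypes. The 3 of 5 gut markers measured summed to 9.47 and 13.5 RPKM in control and to 76.9 and 141 RPKM in mutant libraries. The 2 of 5 fat body markers measured summed to 12.4 to 13.4 RPKM in control and 21.4 to 23.0 RPKM in mutant libraries. The fat body sum follows Adh, which was called (0.88), while the groups overlapped for fon (0.16). The 8 accessory gland markers summed to 3389 to 3505 RPKM in control and 2596 to 3077 RPKM in mutant libraries. That sum follows the sex peptide gene SP, the only one called (-0.75), while 6 of the 8 had a positive difference and the list's median was 0.09. Groups overlapped in the summed levels of muscle (29.6 to 36.0 RPKM in control, 31.2 to 37.9 in mutant), ejaculatory duct and bulb (341 to 678, 423 to 524) and somatic cyst and hub markers (26.4 to 28.4, 26.5 to 29.6), with 0 calls in limma and 0 members at an unadjusted p under 0.05. No member belongs to these lists, and the part of other tissues in the members' differences was not tested. In whole organs, fewer cells of a type and less RNA per cell cannot be told apart.

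The arms of miR-313 were present at very unequal levels in wild-type testes. Canton-S testes gave 1875 reads of miR-313-5p and 18 of miR-313-3p, so that the 5p arm made up 99.0% of the hairpin's reads (exact Clopper-Pearson 95% interval 98.5 to 99.4%, counting error only). Z56 testes gave 4027 and 38 reads, a 5p share of 99.1% (98.7 to 99.3%). The share was 99.2% (98.4 to 99.6%) in Z56 ovaries, from 1051 and 9 reads, and 99.0% (94.3 to 99.97%) in Canton-S carcass, from 95 reads and 1 read. It was lower in Canton-S ovaries, at 91.1% (88.5 to 93.3%), from 524 and 51 reads. With 1 library per strain and tissue, these shares have no replicate check.

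On the deposited RPM scale (reads scaled to a common library total), miR-313-5p stood at 1331 in Canton-S and 2889 in Z56 testes, and miR-313-3p at 12.8 and 27.3. Nearly all 3p reads of the cluster came from its other members. In Canton-S testes the 3p arms of the 4 hairpins had 35795 reads together, of which miR-313-3p was 0.0503% (0.0298 to 0.0795%), and in Z56 testes 66322 reads, of which it was 0.0573% (0.0405 to 0.0786%). The most abundant was miR-312-3p, at 20542 and 25356 RPM. The miR-92 relatives, which lie outside the cluster, numbered 1341 reads in testes of Canton-S and 3149 in those of Z56 as the sum of miR-92a-3p and miR-92b-3p. No small RNA library of the mutant or control line was analysed here, so neither the loss of the cluster nor the level of miR-92 in it was checked.

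**Figure D1:**
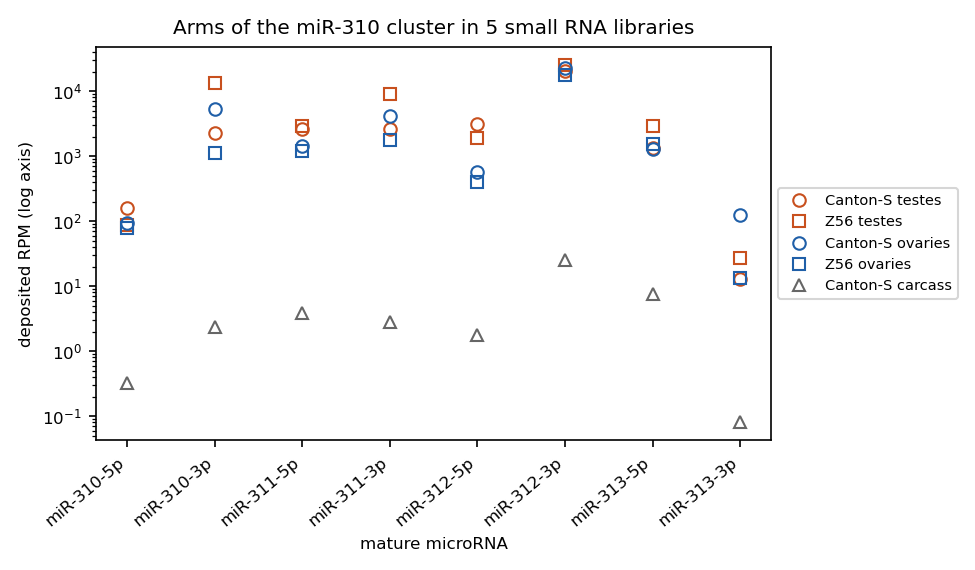
Deposited RPM (log axis) of the 8 mature arms of the miR-310 cluster in 5 small RNA libraries, 1 point per library with no error bar. miR-312-3p is the highest arm in each library, and miR-313-3p stands at 12.8 and 27.3 RPM in Canton-S and Z56 testes against 1331 and 2889 RPM for miR-313-5p.

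The targets of both arms were mostly transcripts of low to moderate level in testes. Their mean over the 4 libraries ran from 1.12 to 5.30 on the log2(RPKM) scale, with a median of 2.55 against 3.21 for all genes of the table. Of the members, 14 of 43 (32.6%) lay below a log2(RPKM) of 2, as did 21.4% of all genes. Genes marked for the 3p arm only had a median level of 2.83 and those marked for the 5p arm only 2.84.

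Highest was fa2h, which encodes a fatty acid hydroxylase, at 5.29 and 5.34 in control and 5.35 and 5.22 in mutant libraries. Next came ms(2)35Ci, named for a male-sterile mutation, at 4.66 and 4.55 in control and 4.57 in each mutant library. CG33981, which RefSeq lists under the synonym APC13, stood at 4.25 and 4.29 in control and 4.40 and 4.35 in mutant libraries. CG2224, the fly homologue of the endosomal deubiquitinase AMSH, stood at 4.20 in each control library and at 4.32 and 4.20 in mutant libraries. For fa2h and ms(2)35Ci the groups overlapped, while for CG33981 and CG2224 both mutant libraries lay above both control libraries. In CG2224 this rests on 4.2014 in the lower mutant against 4.1977 in the higher control library. Groups did not overlap in 50.4% of all genes. The order of these 4 levels was the same in each library.

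At the other end, rhea, the talin gene that links integrins to actin, stood at 1.15 and 1.17 in control and 1.12 and 1.05 in mutant libraries. CG3530, now Mtmr6, encodes a myotubularin-type phosphoinositide phosphatase and stood at 1.18 and 1.13 in control and 1.13 and 1.12 in mutant libraries. CG14506 stood at 1.10 and 1.22 in control and 1.16 and 1.19 in mutant libraries. These neighbours in level do not differ from one another beyond their spread, and all lie close to the lower limit of the table. For rhea and CG3530 both mutant libraries lay below both controls, as in 24.2% of all genes. In CG3530 this rests on 1.1271 in the higher mutant against 1.1277 in the lower control library. The groups overlapped for CG14506.

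**Figure D2:**
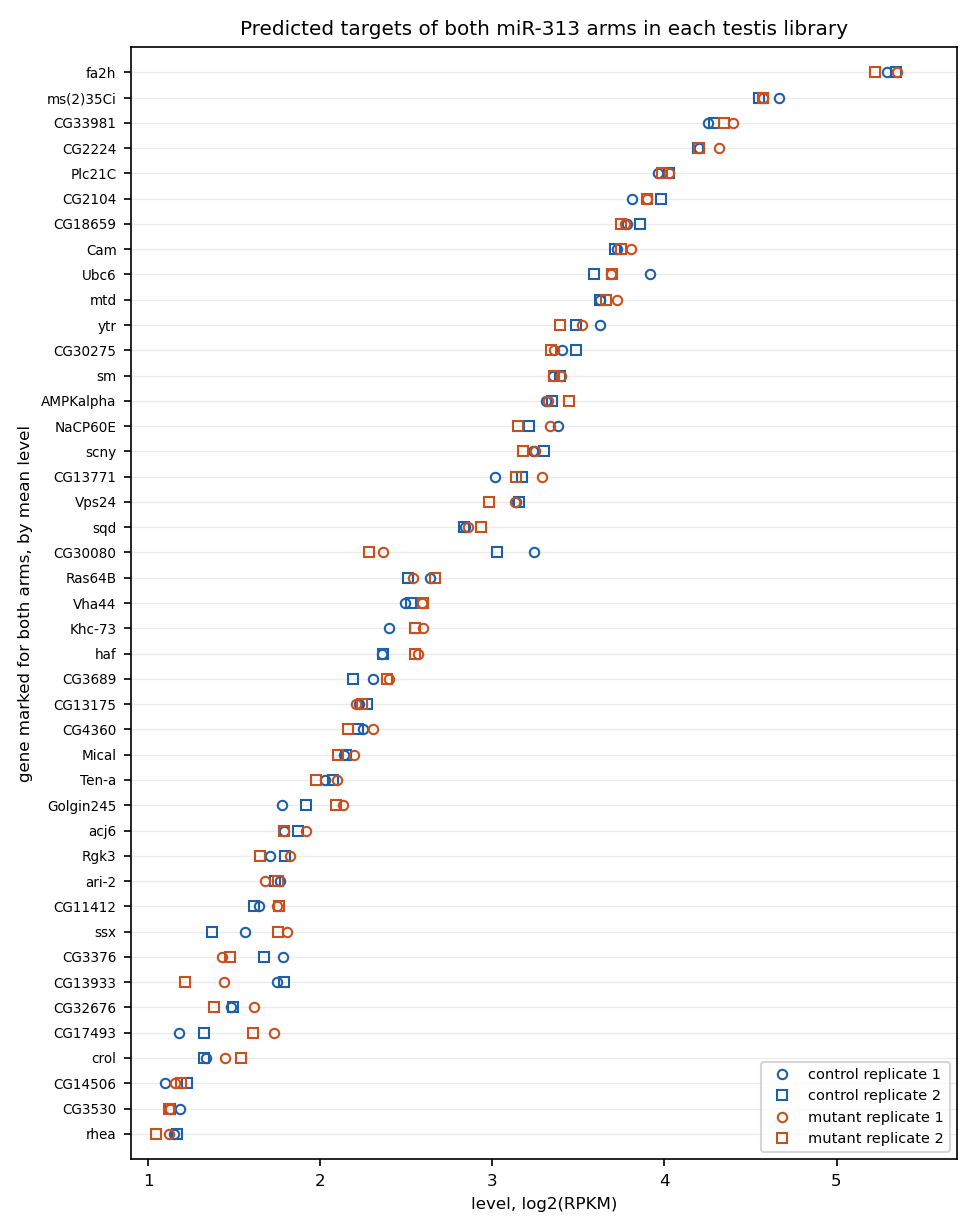
Level of each of the 43 targets of both arms in log2(RPKM), in order of mean level, with 1 point per library (blue control, orange mutant; circles replicate 1, squares replicate 2). In 21 of the 43 genes (48.8%) the groups do not overlap, near the 50.4% of all genes. Among the 43 the separation of CG30080 is the widest, at 3.24 and 3.03 in control against 2.37 and 2.28 in mutant libraries.

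Loss of the cluster went with few single-gene differences among the targets of both arms. In limma, fitted on all 7539 genes with Benjamini-Hochberg adjustment, 1 of the 43 passed an adjusted p of 0.05, and it was lower in the mutant. Over all genes 1.5% passed, 0.544% higher and 0.955% lower, so a count of 1 in 43 is near the background. At an unadjusted p under 0.05 there were 7 members, 4 higher and 3 lower, or 16.3% against 17.7% of all genes (8.18% higher and 9.47% lower). That count was 3 without control replicate 1, 4 without control replicate 2, and 3 when either mutant library was left out. When only genes with a mean log2(RPKM) of at least 2 were fitted, 2 of 29 members had an unadjusted p under 0.05. Groups did not overlap for 21 of the 43 members, 13 with the mutant higher and 8 with it lower. The share was 48.8%, against 50.4% of all genes (26.2% higher and 24.2% lower).

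The gene that passed was CG30080, for which no function is given here. It stood at 3.24 and 3.03 in control (mean 3.13 ± 0.15, SD, n = 2) and at 2.37 and 2.28 in mutant libraries (2.32 ± 0.06, n = 2). Both mutant libraries lay below both controls. The gene fell by 0.81 on the log2 scale (SE 0.10, 95% interval -1.07 to -0.55), or 1.75-fold, with an adjusted p of 0.0375.

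The values of CG30080 were identical in all 4 libraries to those of CG42662, a gene that RefSeq places beside it and overlapping it and that is marked for neither arm. Which of these transcripts fell therefore cannot be told apart. The direction held whichever library was left out, but the call did not, with an adjusted p of 0.160 without control replicate 1 and 0.104 without control replicate 2. It was 0.0711 when mutant replicate 1 was left out and 0.121 when mutant replicate 2 was. The difference in those fits lay between -0.92 and -0.70. Among the 40 members whose profile was their own, 0 passed in limma, and 6 had an unadjusted p under 0.05 (15.0%, against 17.7% of all genes). The other members with a shared profile were CG33981, identical to the lipid kinase gene fab1, a target of the 5p arm only, and CG13175, identical to CG33964, a target of the 3p arm only.

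**Figure D3:**
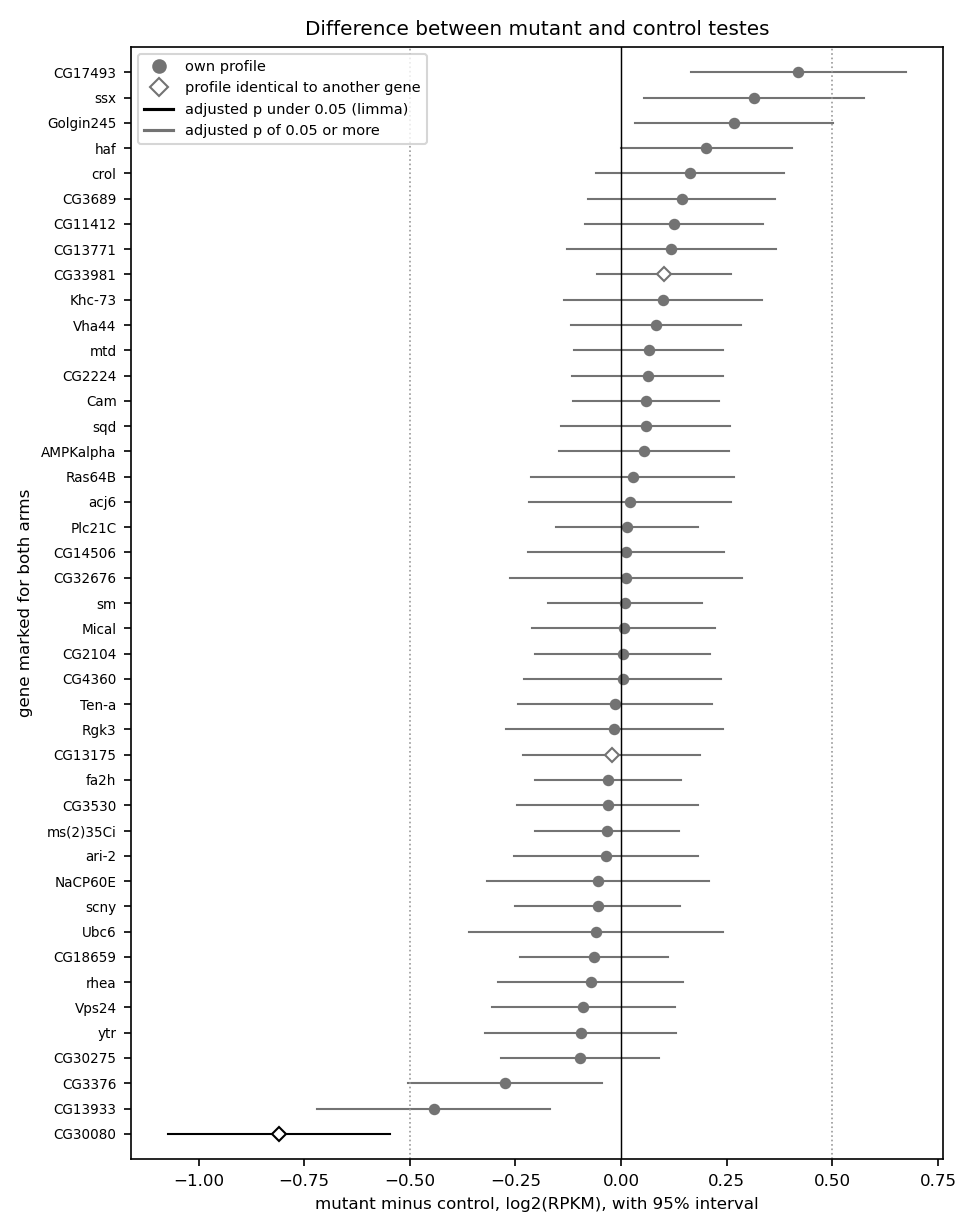
Mutant minus control difference of the 43 targets of both arms on the log2(RPKM) scale, with the 95% interval from limma, 2 libraries a group; open diamonds are genes whose 4 values equal those of another gene, and dotted lines mark 0.5 in each direction. CG30080, at -0.81, is the only gene drawn in black (adjusted p 0.0375), and 37 of 43 intervals lie between the dotted lines.

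For most of these genes the interval around the difference between these particular libraries was narrow. With a single line per genotype and a spread that may be technical, it does not bound the effect of losing the cluster. The 95% interval, not adjusted for the number of genes, lay wholly between -0.5 and 0.5 (a 1.41-fold difference either way) for 37 of 43 members, or 86.0%, against 80.8% of all genes. Standard errors ran from 0.06 to 0.12. The median absolute difference between genotypes was 0.060 among members and 0.102 among all genes, and the median gap between libraries of a group was 0.055 in control and 0.069 in mutant testes (0.086 and 0.10 over all genes). In 29 of 43 members (67.4%) the larger of these gaps exceeded the difference between genotypes, near the 62.3% of all genes. Members lie lower in level than the table as a whole, which limits such side-by-side values.

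RNA-binding, transcription and chromatin genes were the only role group with a single sign of the mean difference. The grouping by role was made after the values were known, and another assignment of genes could change the signs, so its counts are descriptions. Standard errors in this group ran from 0.073 to 0.110. All 7 members had a positive difference, with a median of 0.058, against 51.3% positive and a median of 0.0045 for all genes. Of the 7, 0 passed limma and 1 had an unadjusted p under 0.05, against 1.5% and 17.7% of all genes. In 4 of the 7 both mutant libraries lay above both controls, as in 26.2% of all genes. Mutant replicate 1 was higher in 7 of 7 against either control, but mutant replicate 2 in 5 of 7 against control replicate 1 and 4 of 7 against control replicate 2.

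The largest of these differences was that of ssx, the sister gene of the sex determination regulator Sex-lethal, which encodes an RNA-binding protein. It stood at 1.56 and 1.37 in control and 1.81 and 1.76 in mutant libraries, a difference of 0.31 (SE 0.10, limma adjusted p 0.224). The feature mir-4961, which RefSeq places within the span of ssx and which is marked for neither arm, stood at 1.34 and 1.25 in control and 1.81 and 1.99 in mutant libraries (difference 0.61, adjusted p 0.0663). Whether such overlapping features share reads cannot be told here.

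The zinc finger gene crol, an ecdysone-induced regulator, stood at 1.33 in each control library and at 1.45 and 1.54 in mutant libraries (difference 0.16, SE 0.09, adjusted p 0.406). CG3689, now Cpsf5, encodes the small subunit of cleavage factor I, which acts in choosing polyadenylation sites. It stood at 2.31 and 2.19 in control and 2.40 and 2.38 in mutant libraries (difference 0.14, SE 0.09, adjusted p 0.457). The mutant libraries lay above the control libraries for both crol and CG3689. CG3967, now Atat, overlaps CG3689 in RefSeq and is marked for the 3p arm only. It stood far higher, at 6.07 and 6.08 in control and 6.26 and 6.19 in mutant libraries (difference 0.15, limma adjusted p 0.258). Whether CG3689 and CG3967 share reads cannot be told here. The hnRNP gene sqd, which acts in localising messengers in the oocyte, had a difference of 0.06, and sm, an hnRNP L homologue, 0.0088. The POU-domain gene acj6, which sets olfactory receptor choice, had 0.02, and CG32676, now stx, which controls the turnover of the Polycomb protein, 0.01.

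Signalling, calcium and channel genes had both signs, 5 positive and 3 negative, with a median difference of 0.021. In limma 0 of 8 were called, against 1.5% of all genes. At an unadjusted p under 0.05 there was 1, against 17.7% of all genes. CG17493, an EF-hand gene of the centrin type, had the largest positive difference of all members. It stood at 1.18 and 1.32 in control (mean 1.25 ± 0.10, SD, n = 2) and at 1.73 and 1.61 in mutant libraries (1.67 ± 0.08, n = 2). The mutant libraries were both above the controls, and the difference of 0.42 (SE 0.10, 95% interval 0.16 to 0.67) had an adjusted p of 0.129. With single libraries left out it ranged from 0.35 to 0.49, with adjusted p from 0.215 to 0.453.

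Core signalling genes of the group lay close to their control levels. Calmodulin (Cam), the calcium sensor, had a difference of 0.06 (95% interval -0.11 to 0.23), AMPKalpha, the catalytic subunit of the energy-sensing kinase, 0.05 (-0.15 to 0.26), and the phospholipase C gene Plc21C 0.01 (-0.16 to 0.18). The Ras-family GTPase gene Ras64B had 0.03 and Rgk3, of the RGK GTPase family, -0.02. CG18659, which encodes a DENN-domain protein, had -0.06, and the voltage-gated channel gene NaCP60E -0.05. AMPKalpha and ssx are adjacent genes and the only such pair among the members.

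Membrane traffic and lipid genes held members at both ends of the range, with 3 positive and 4 negative differences and a median of -0.030. In limma 0 of 7 were called and 2 had an unadjusted p under 0.05. The shares over all genes were 1.5% and 17.7%. Golgin245, which encodes a tethering protein of the trans-Golgi, stood at 1.78 and 1.91 in control and 2.13 and 2.09 in mutant libraries, a difference of 0.27 (SE 0.09, adjusted p 0.247). In CG3376, listed by RefSeq under the synonym aSMase (acid sphingomyelinase), the sign was the opposite, with 1.78 and 1.67 in control, 1.43 and 1.48 in mutant libraries and a difference of -0.27 (SE 0.09, adjusted p 0.228). Neither gene had overlapping groups, and neither passed.

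Vps24, an ESCRT-III subunit of the endosomal sorting machinery, stood at 3.14 and 3.15 in control and 3.13 and 2.98 in mutant libraries (difference -0.09, adjusted p 0.639). The proton pump subunit gene Vha44 had a difference of 0.08, with both mutant libraries higher, and CG3530 and fa2h had -0.03 each. Khc-73, a kinesin reported as a target of the cluster at the neuromuscular junction, stood at 2.40 and 2.55 in control and 2.60 and 2.55 in mutant libraries, a difference of 0.10 (95% interval -0.14 to 0.33). Its groups overlapped. It was the only member of both target classes among the 7 of 10 reported cluster targets that were measured. Of those 7, 1 was called higher, the antifungal peptide gene Drs, which is marked for neither arm, and the median difference was 0.08. The share called higher over all genes was 0.544%.

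Adhesion and cytoskeleton genes included haf, a leucine-rich repeat transmembrane protein gene, at 2.36 in each control library and at 2.57 and 2.55 in mutant libraries. The spread within its groups was very small, and the difference of 0.20 (SE 0.08, 95% interval 0.00023 to 0.40) had an adjusted p of 0.283. CG10869, now nis, overlaps haf in RefSeq and stood far higher, at 6.82 and 6.86 in control and 7.05 and 7.11 in mutant libraries, with a difference of 0.24 (adjusted p 0.116). Whether the counting used strand is not given in the sources used here, so it cannot be told whether haf and CG10869 share reads. The teneurin gene Ten-a, which acts in synaptic partner matching, had -0.01, the actin-oxidising enzyme gene Mical 0.0059, and rhea -0.07.

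In ubiquitin and protein modification genes, 2 differences were positive and 3 negative, with a median of -0.036. Of 5 members, 0 passed limma, and 0 had an unadjusted p under 0.05, against 1.5% and 17.7% of all genes. CG11412, now Naa30A, the catalytic subunit of an N-terminal acetyltransferase, had 0.13 with both mutant libraries higher, and CG2224 had 0.06. The deubiquitinase gene scny, homologous to human USP36, had -0.06 and the ubiquitin ligase gene ari-2 -0.04. Ubc6, the fly Rad6 ubiquitin-conjugating enzyme, stood at 3.92 and 3.59 in control and at 3.69 in each mutant library. Its gap between controls, 0.33, was wider than its difference of -0.06.

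The remaining 12 members have other roles or none given here, with 6 positive and 6 negative differences and a median of -0.0093. Among them was 1 call in limma (CG30080), against 1.5% of all genes. The second largest negative difference of all members was that of CG13933, which RefSeq lists under the synonym dmASBa. It stood at 1.75 and 1.79 in control (mean 1.77 ± 0.03, SD, n = 2) and 1.44 and 1.21 in mutant libraries (1.33 ± 0.16, n = 2). Both mutant libraries were lower, by -0.44 (SE 0.11, 95% interval -0.72 to -0.17; adjusted p 0.135). With single libraries left out the adjusted p ranged from 0.102 to 0.432.

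CG30275 stood at 3.41 and 3.49 in control and 3.36 and 3.34 in mutant libraries (difference -0.10, adjusted p 0.548). The gene ytr stood at 3.63 and 3.48 in control and 3.52 and 3.40 in mutant libraries (difference -0.10, adjusted p 0.628). The mutant libraries of CG30275 both lay lower, whereas those of ytr overlapped the controls. CG13771 had a difference of 0.12, CG33981 0.10, and mtd, whose human homologue OXR1 acts in resistance to oxidation, 0.07. CG14506 had 0.01, CG2104 0.0041, CG4360 0.0035, CG13175 -0.02 and ms(2)35Ci -0.03.

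**Figure D4:**
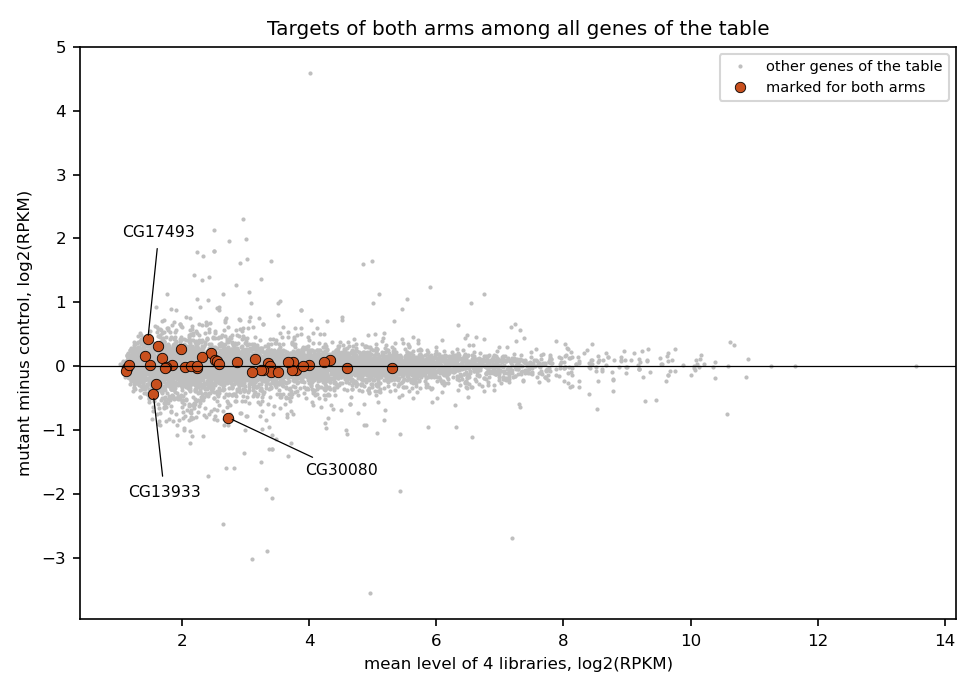
Mutant minus control difference against mean level for all 7539 genes (grey) and the 43 targets of both arms (orange), each point 1 gene, both axes in log2(RPKM). The members lie between -0.81 and 0.42 and the other genes between -3.56 and 4.59. Ranges depend on the number of genes and are not compared.

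As a list, the targets of both arms were centred close to the table as a whole. Their median difference was 0.0088, with quartiles of -0.045 and 0.074, and 25 of 43 (58.1%) were positive. Over all genes the median was 0.0045, the quartiles were -0.101 and 0.102, and 51.3% were positive. Genes marked for the 3p arm only had a median of 0.043 and 61.4% positive, and those marked for the 5p arm only 0.025 and 59.1%. Differences between these classes were not tested.

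The list's median rested on which libraries were compared. Mutant replicate 1 stood above control replicate 1 by a median of 0.062, with 28 of 43 members higher, and above control replicate 2 by 0.029, with 29 higher. Mutant replicate 2 gave 0.0037 against control replicate 1 and -0.031 against control replicate 2, with 22 and 18 members higher. The median was 0.0045 without control replicate 1 and 0.026 without control replicate 2. It was -0.0047 when mutant replicate 1 was left out and 0.036 when mutant replicate 2 was. For all genes it was 0.0046, 0.0074, -0.0045 and 0.013 in the same order.

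**Figure D5:**
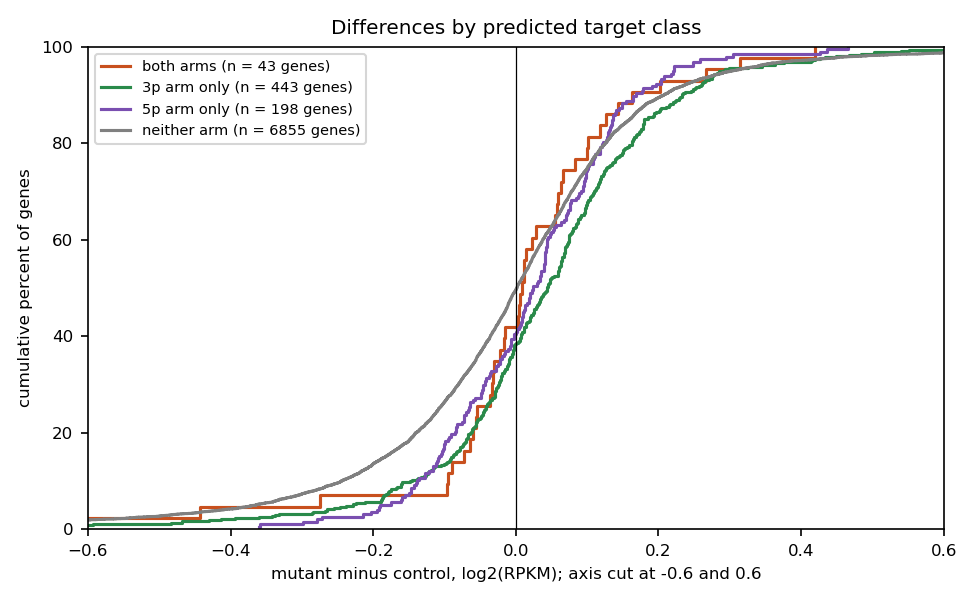
Cumulative percent of genes by mutant minus control difference in log2(RPKM), for targets of both arms (43 genes), of the 3p arm only (443), of the 5p arm only (198) and of neither arm (6855); values beyond 0.6 in either direction are not shown. The medians are 0.0088, 0.043, 0.025 and 0.0016 in that order.

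The genes that make and use microRNAs had no call. Of 20 listed, 16 were measured, with a median difference of 0.014. In limma 0 were called in either direction and 1 had an unadjusted p under 0.05, against 1.5% and 17.7% of all genes. None of them is marked for both arms. AGO1, the Argonaute that carries most fly microRNAs, is marked for the 3p arm and had a difference of -0.0090. The processing cofactor genes loqs and pasha are marked for the 5p arm and had 0.04 and 0.14.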

How the data were processed

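For the 4 testis libraries the values are log2(RPKM) as the authors deposited them, beside TargetScan marks for each miR-313 arm. The submitters' processing notes name TopHat. Its version, the counter, strand use and build are not stated in the sources used here. Sorted columns differed by at most 0.044, the pattern of quantile normalization, and the RNA-seq depth is unknown. Small RNA read counts and RPM were deposited per the file headers, with 404183 to 12445851 reads a library; a count of 0 would allow 0.241 to 7.42 RPM (3 reads).

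The mutant comparison used R 4.3.3 and limma 3.58.1, with a mean trend in eBayes (tested on simulated data) and without a pseudocount or further filter, at an adjusted p of 0.05 over all 7539 genes. All 43 members are named. Values per library are given for members with an unadjusted p under 0.05, the 6 largest differences in each direction and the 4 highest and 4 lowest levels; those of Khc-73, Ubc6 and genes overlapping members were added after their values were seen. All 43 IDs matched a symbol, and 5 symbols have since changed. Adjacency and overlap were derived from gene positions in RefSeq's Release 6 table, and no coordinates are printed. The members and lists were chosen with earlier results of these data known. Alternatives covered moderation, filter, pseudocount, scaling, replicate block, shared profiles and each library left out.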

Additional observations from a re-analysis of the deposited data

How the results depend on the processing

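CG30080 kept its direction in each setting and its call in each of the 8 settings that used all 4 libraries, with adjusted p from 0.0144 to 0.0441. Quantile normalization and median centring barely altered its difference (-0.80 in each, against -0.81), since the sorted deposited columns were already alike. The number of called members was 0 with any single library left out (a range of 0 to 0) and 0 without members of shared profile, a setting chosen after seeing the data. The number of all genes called ranged from 22 to 99 with single libraries left out. The median of the members ranged from -0.0047 to 0.036. Of 19 members given with full values, 3 changed sign in such fits, none of them called: ms(2)35Ci (-0.091 to 0.023), CG14506 (-0.052 to 0.075) and fa2h (-0.097 to 0.036). The cause was not tested. With the replicate number as a block, 238 genes were called, 89 of them higher, and CG30080 remained the only member (adjusted p 0.0144). Deviations of same-numbered libraries correlated at 0.060 across genes and the labels state no pairing, so the libraries are taken to share only a number. The 5p shares of miR-313 stayed within their counting intervals under both other ways of counting. Without read counts the depth behind a gene's value is unknown, and 2 libraries a group limit precision.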

Other observations

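Overlap with other genes was counted for the targets of both arms only, so no share over all genes is given. In RefSeq, 23 of the 43 members overlap at least 1 other gene of the table, 43 such genes in all, of which 40 are marked for neither arm. Of these overlapping genes, 1 was called in limma (CG42662) and 9 had an unadjusted p under 0.05, or 2.33% and 20.9%, near the 1.5% and 17.7% of all genes. The antisense RNA CR45928 at ytr stood at 2.16 and 2.09 in control and 1.69 and 1.54 in mutant libraries, a difference of -0.51 (adjusted p 0.0806), beside -0.10 for ytr itself. CG31407 at Mical stood at 4.35 and 4.33 in control and 4.47 and 4.68 in mutant libraries, a difference of 0.24 (adjusted p 0.258), beside 0.0059 for Mical. Both genes were chosen after their values were seen.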
